A study of Mus musculus with 34 samples.

Results

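The comparison described here was that of lungs of female mice exposed to ozone (O3) with lungs of female mice exposed to filtered air (FA) in metestrus, the first stage of the luteal phase of the estrous cycle. Its members were chosen by the stage and the exposure that the sample labels give, and numbered 7 of the 34 mice in the series, 3 exposed to O3 and 4 exposed to FA. All 7 were C57BL/6 females by the labels (C57BL/6J by the methods) of 8 weeks of age, and carried no transgene or deletion that the labels name. The O3 mice breathed 2 ppm of O3 for 3 h, the FA mice breathed filtered air in the same way for 3 h, and the lungs were taken 4 h after the exposure ended. Stages had been assigned by vaginal smears and serum hormones. Total RNA of lung homogenate was measured with a PCR array of 84 mRNAs of inflammation and immunity.

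O3 is a reactive oxidant gas that injures the airway lining. Injured epithelial cells and resident macrophages are known to release cytokines and chemokines, small secreted proteins that draw leukocytes out of the blood: CXC chemokines that bind CXCR2 mainly attract neutrophils, the ligands of CCR2 attract monocytes, and the ligands of CCR3 and CCR4 attract eosinophils and type 2 T cells. Metestrus follows ovulation and is the stage in which the corpora lutea form.

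The array reports a threshold cycle (Ct), the PCR cycle at which a product is first seen, so that a lower Ct means more mRNA. Levels are given as -ΔCt, obtained by subtracting the Ct of the gene from the mean Ct of 4 reference wells in the same mouse. This is a log2 scale on which 1 unit is a doubling if PCR is fully efficient. A well without a Ct was given a Ct of 40. Differences between groups are log2 fold changes, O3 minus FA, and were tested with limma with Benjamini-Hochberg adjustment (false discovery rate, FDR) over all 84 wells. Levels of different genes come from different primers and are not compared with each other. The replicates are separate animals by their labels. Because whole lung was homogenized, fewer cells of a type and less RNA per cell cannot be told apart.

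The wells carry positions and no gene names, and 20 of the 84 wells could be given a gene. Of these, 17 were placed by the study's own lists of changed genes, and Ccl19, Ccr2 and Cxcl3 were placed less firmly, by the colors of its heat map. The study had chosen all 20 with these mice among its samples, so the number of them that differed is not independent evidence of a direction. No well was named for a marker of lung epithelium, endothelium or neutrophils, so the labelled tissue was not checked here.

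Mean reference Ct was 21.1 ± 0.930 (SD, n = 3) in O3 mice and 20.2 ± 1.42 (SD, n = 4) in FA mice, and the difference of 0.864 cycles was within the spread of the mice (two-sided exact permutation test, p = 0.571). The smallest p that 3 against 4 mice can give is 0.0571. Between 4 and 10 of the 84 wells per mouse had no Ct, and 71 wells had a Ct in all 7 mice. One animal stood apart in its record: FA replicate 1 was the only metestrus mouse whose Ct values were written to 6 decimals and not 3, and the only one with a Ct (35.5) in well H6. Values without it are given beside the results that rest on it, and beside them those of the 22 mice recorded to 3 decimals. The latter fit also leaves out 11 mice of the other stages, so that it gives the same log2 fold change with another estimate of the spread. Reference well H2 was lower relative to the mean of the 4 reference wells after O3, by 0.41 on the log2 scale, and with each reference in turn the median log2 fold change of all 84 wells lay between -0.30 and 0.40, against -0.02 with the 4 wells together.

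**Figure D1:**
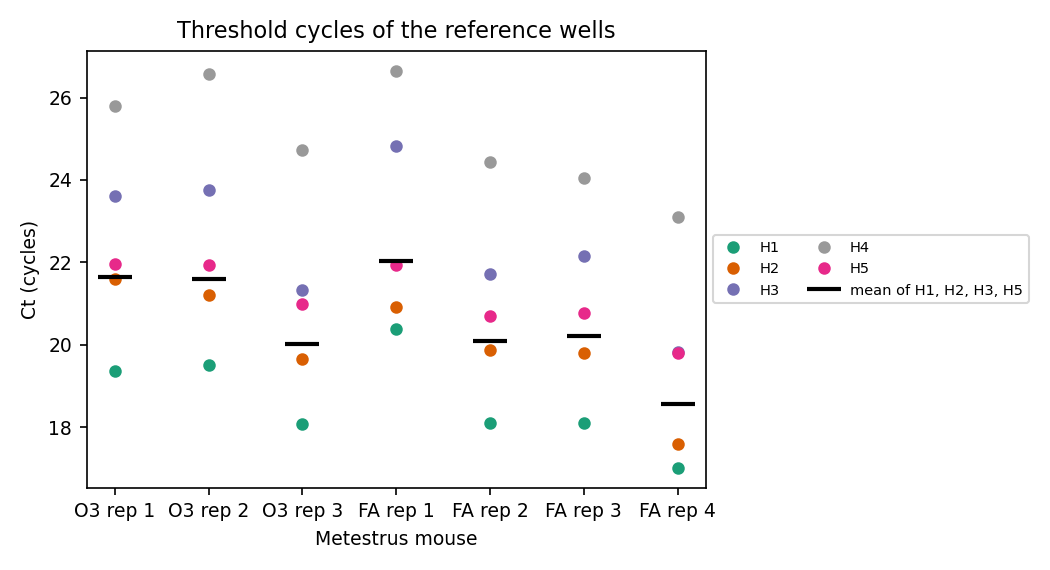
Threshold cycles (Ct, cycles) of 5 reference wells in the 7 metestrus mice, 1 column per mouse; the black bars are the mean of the 4 wells used. The mean spans 20.01 to 21.63 in O3 mice and 18.55 to 22.02 in FA mice, and the wells of a mouse move together.

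After O3 in metestrus, 6 of the 84 wells rose and none fell at an FDR under 0.05 (7.14% of all wells, limma). At an unadjusted p under 0.05 there were 16 higher and 2 lower wells, 21.4% of all. All 6 had a gene name: the cytokine Il6, the chemokines Ccl20, Cxcl2 and Ccl17, the enzyme gene Ptgs2 and the receptor gene Il1r1. With the mean of the array wells as the reference, 7 wells rose and 2 fell, and with reference well H3 alone 4 rose and 1 fell. The groups did not overlap in 25 wells (29.8%): in 15 wells (17.9%) every O3 mouse lay above every FA mouse, and in 10 wells (11.9%) every O3 mouse lay below. Among the 20 named genes these numbers were 13 and 1, with 17 positive and 3 negative log2 fold changes and a median of 1.52. The 64 wells without a name held 2 of the wells above and 9 of the wells below, none of them past the FDR. These 64 wells had 24 positive and 40 negative log2 fold changes, a median of -0.15 and a range from -3.82 to 2.22. Of these, 2 wells had no Ct in any of the 7 mice, so that their value of 0.864 is the difference in mean reference Ct. The well at -3.82, counted among those below, had no Ct in any O3 mouse.

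**Figure D2:**
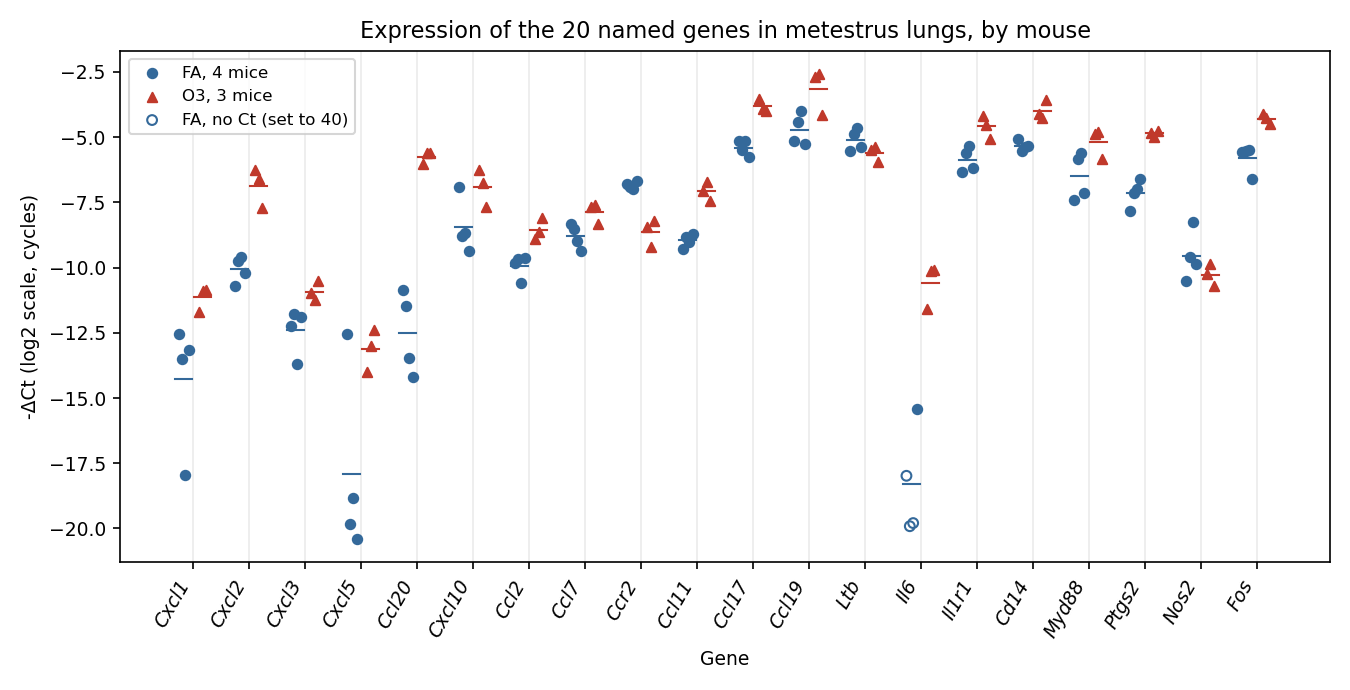
Level (-ΔCt, log2 scale, cycles) of the 20 named genes on the vertical axis, with 1 triangle per O3 mouse (n = 3), 1 circle per FA mouse (n = 4) and a bar at each group mean. Open circles are wells with no Ct, set to a Ct of 40; for Il6, 3 of the 4 FA mice are open, and for Ccr2 the O3 mice lie below the FA mice.

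Promoters are shown for the genes with the 4 largest log2 fold changes among those that rose past the FDR. Each run is the 250 bases before the RefSeq start of the gene on its own strand (GRCm38.p6, plus strand). Il6 lies at chr5:30012864-30013113, Ccl20 at chr1:83116516-83116765, Cxcl2 at chr5:90903649-90903898 and Ptgs2 at chr1:150099781-150100030. Capitals mark the κB pattern (GGG, any 2 bases, TTTCC), a form of the site that NF-κB proteins bind, and TGANTCA, the AP-1 site, each searched on both strands; TATAAA was searched on the gene strand. The marked matches do not overlap.
Il6: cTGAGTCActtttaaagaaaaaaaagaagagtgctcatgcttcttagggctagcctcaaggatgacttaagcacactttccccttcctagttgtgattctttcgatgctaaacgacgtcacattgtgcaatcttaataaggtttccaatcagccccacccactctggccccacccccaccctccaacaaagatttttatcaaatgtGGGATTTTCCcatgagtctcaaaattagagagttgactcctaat
Ccl20: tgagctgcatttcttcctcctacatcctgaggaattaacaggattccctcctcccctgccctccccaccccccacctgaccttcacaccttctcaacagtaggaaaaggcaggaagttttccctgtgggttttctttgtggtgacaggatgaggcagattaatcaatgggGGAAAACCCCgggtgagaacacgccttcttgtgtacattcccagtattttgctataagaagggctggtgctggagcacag
Cxcl2: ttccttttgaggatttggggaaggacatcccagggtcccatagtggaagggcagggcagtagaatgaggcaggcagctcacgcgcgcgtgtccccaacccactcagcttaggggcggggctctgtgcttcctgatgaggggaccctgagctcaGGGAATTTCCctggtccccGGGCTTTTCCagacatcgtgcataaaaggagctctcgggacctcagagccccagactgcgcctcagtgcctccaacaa
Ptgs2: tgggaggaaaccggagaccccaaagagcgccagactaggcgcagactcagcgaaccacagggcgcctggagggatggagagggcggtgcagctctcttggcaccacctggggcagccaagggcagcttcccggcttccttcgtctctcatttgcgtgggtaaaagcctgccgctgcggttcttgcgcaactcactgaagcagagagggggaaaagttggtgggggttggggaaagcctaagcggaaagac
In Il6 the match GGGATTTTCC began 44 bases before the start and TGAGTCA 249 bases before it. In Cxcl2 the matches GGGAATTTCC and GGGCTTTTCC began 97 and 78 bases before the start, and in Ccl20 the match GGGGTTTTCC lay on the opposite strand, 80 bases before it. None of the 3 patterns occurred in the Ptgs2 window. In windows of 300 bases, 250 before and 50 after the start, the κB pattern occurred in 1.63% of all 32851 RefSeq promoters and in 6 of the 14 named genes with a promoter in the table, namely Ccl20, Cxcl1, Cxcl2, Cxcl3, Il6 and Ltb. TGANTCA occurred in 7.81% of all promoters and in Cxcl10 and Il6, and TATAAA in 8.32% and in Cxcl3, Fos and Myd88. These are matches of letters and not measured sites.

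Il6 encodes a cytokine of the acute phase, released by epithelial cells and macrophages. Its -ΔCt was -11.59, -10.13 and -10.09 in the O3 mice. Among the FA mice, replicate 4 was the only one with a Ct, 33.97, and had a -ΔCt of -15.42; replicates 1 to 3 had no Ct, and with a Ct of 40 they stood at -17.98, -19.91 and -19.79. Every O3 mouse was thus above every FA mouse. Il6 rose by 7.67 log2 units (SE 1.54, 95% interval 4.52 to 10.83, adjusted p = 0.00243, limma). This size depends on the value given to a well with no Ct: it was 3.92 with all Ct limited to 35 and 4.67 with a Ct of 36 for no Ct, each past the FDR. With such wells left out it was 4.82 (adjusted p = 0.0260, limma), but FA was then replicate 4 alone, which was assumed to vary like the mice of the other groups.

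Ccl20 encodes the ligand of CCR6, which attracts dendritic cells and T cells and is made by airway epithelium. Its -ΔCt was -6.04, -5.62 and -5.61 in the O3 mice and -10.87, -11.48, -13.48 and -14.21 in the FA mice, with a Ct in all 7. The O3 mice lay within 0.5 of each other, whereas the FA mice were spread over more than 3 units. Ccl20 rose by 6.75 (SE 1.77, 95% interval 3.12 to 10.38, adjusted p = 0.0145, limma), which is 108-fold at full PCR efficiency. Without FA replicate 1 the log2 fold change was 7.30 (adjusted p = 0.0249, limma; 0.00978 in the mice recorded to 3 decimals).

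Of the 4 CXC chemokines that attract neutrophils, Cxcl2 rose and Cxcl1, Cxcl3 and Cxcl5 did not pass the test, with a median log2 fold change of 3.18 over the 4, against -0.02 over all 84 wells. Cxcl2, a product of macrophages and neutrophils, had a -ΔCt of -6.24, -6.61 and -7.71 in O3 mice and -10.69, -9.76, -9.61 and -10.23 in FA mice. The groups were separated by nearly 2 units at their closest mice. The log2 fold change was 3.22 (SE 0.800, 95% interval 1.58 to 4.85, adjusted p = 0.0110, limma), or 9.29-fold, and 3.01 without FA replicate 1 (adjusted p = 0.0281, limma; 0.00978 in the mice recorded to 3 decimals).

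Cxcl5, made mainly by alveolar epithelium, had the third largest log2 fold change of the named genes, 4.77 (SE 1.85, 95% interval 0.99 to 8.55), and did not pass the test (adjusted p = 0.142, limma). Its -ΔCt was -13.98, -13.02 and -12.39 in the O3 mice, and -12.53, -19.82, -18.84 and -20.41 in FA replicates 1 to 4. FA replicate 1, the mouse recorded to 6 decimals, lay among the O3 mice, and the other FA mice had Ct values near the end of the run, between 38.96 and 39.91. Without FA replicate 1 alone the log2 fold change of Cxcl5 was 6.56 (adjusted p = 0.0249, limma). In the mice recorded to 3 decimals, without 11 further mice of other stages, it was also 6.56 (adjusted p = 5.15e-06, limma), and with the number format as a term it was 6.10 (adjusted p = 1.56e-06, limma). What sets this mouse apart was not tested. With Ct values limited to 35 the log2 fold change was 1.75 (adjusted p = 0.453, limma).

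Cxcl1, a close relative of Cxcl2, stood at -11.70, -10.88 and -10.85 in O3 mice and at -12.54, -13.49, -17.93 and -13.15 in FA mice. The groups did not overlap, and FA replicate 3, with a Ct of 38.14, was lower than the other FA mice by more than 4 units. The log2 fold change was 3.13 (SE 1.35, adjusted p = 0.183, limma), and 1.92 without that mouse (adjusted p = 0.4656, limma). With Ct values limited to 35 it was 2.35 (adjusted p = 0.0553, limma). For Cxcl3, which was placed less firmly, -ΔCt was -10.96, -11.26 and -10.53 in O3 mice and -12.24, -11.79, -13.68 and -11.91 in FA mice, again without overlap, with a log2 fold change of 1.49 (SE 1.57, adjusted p = 0.688, limma).

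Ptgs2 and Nos2 encode inducible enzymes, cyclooxygenase-2 of prostaglandin synthesis and inducible nitric oxide synthase. Ptgs2 had a -ΔCt of -4.82, -4.99 and -4.75 in O3 mice and -7.82, -7.16, -6.99 and -6.59 in FA mice. The O3 mice were within 0.3 of each other, the narrowest O3 group of the 20 genes (SD 0.122, n = 3). Ptgs2 rose by 2.29 (SE 0.547, 95% interval 1.17 to 3.41, adjusted p = 0.0106, limma), which is 4.88-fold.

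For Nos2, -ΔCt was -10.24, -9.88 and -10.70 in O3 mice and -10.50, -9.58, -8.24 and -9.86 in FA mice. The groups overlapped, and the log2 fold change was -0.73 (SE 0.956, 95% interval -2.69 to 1.23, adjusted p = 0.716, limma), or -0.30 without FA replicate 3.

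The type 2 chemokines are Ccl17, a CCR4 ligand of dendritic cells, and Ccl11 (eotaxin), the CCR3 ligand that attracts eosinophils. Ccl17 had a -ΔCt of -3.54, -3.93 and -3.98 in O3 mice and -5.16, -5.50, -5.16 and -5.78 in FA mice. It rose by 1.58 (SE 0.471, 95% interval 0.62 to 2.55, adjusted p = 0.0377, limma), or 3.00-fold. This call depended on the reference. Ccl17 passed with well H5 alone (adjusted p = 0.0142, limma), but not with H1, H2 or H3 alone (adjusted p = 0.0756, 0.411 and 0.395, limma). It passed in 15 of 28 other settings. For Ccl11 every O3 mouse was also above every FA mouse, at -7.07, -6.70 and -7.45 against -9.28, -8.83, -9.02 and -8.71. Its difference was larger than that of Ccl17, 1.89, but its error was larger too (SE 0.862, adjusted p = 0.183, limma). That error was estimated over the 34 mice of all stages. Fitted on the 7 metestrus mice alone, Ccl11, Ccr2, Cd14 and Fos passed the FDR and Il1r1 did not, in all 8 higher wells and 1 lower.

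Il1r1 encodes the signalling receptor of interleukin 1, and Myd88 the adaptor through which that receptor and most Toll-like receptors signal. Il1r1 had a -ΔCt of -4.17, -4.54 and -5.05 in O3 mice and -6.35, -5.60, -5.32 and -6.18 in FA mice. The closest mice of the groups were 0.3 apart. Il1r1 rose by 1.28 (SE 0.396, 95% interval 0.46 to 2.09), or 2.42-fold, with the largest adjusted p of the 6 genes, 0.0452 (limma). Without FA replicate 1 its log2 fold change was 1.12 and did not pass (adjusted p = 0.115, limma; 0.0634 in the mice recorded to 3 decimals).

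Myd88 overlapped between the groups, since O3 replicate 3 and FA replicate 2 both stood at -5.85. The other O3 mice were at -4.87 and -4.80 and the other FA mice at -7.42, -5.60 and -7.15, for a log2 fold change of 1.33 (SE 0.652, adjusted p = 0.223, limma). Cd14, the co-receptor for lipopolysaccharide on monocytes and macrophages, was at -4.11, -4.27 and -3.58 in O3 mice and at -5.08, -5.52, -5.36 and -5.34 in FA mice. These groups did not overlap, and the log2 fold change was 1.34 (SE 0.598, adjusted p = 0.183, limma).

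Of the genes of monocyte recruitment, the ligand genes Ccl2 and Ccl7 and the receptor gene Ccr2, none passed the test. Ccl2 was at -8.91, -8.64 and -8.11 in O3 mice and at -9.82, -9.65, -10.59 and -9.61 in FA mice, with a log2 fold change of 1.37 (SE 0.599, adjusted p = 0.183, limma). Ccl7 was at -7.68, -7.60 and -8.34 in O3 mice and at -8.34, -8.50, -8.97 and -9.35 in FA mice, with a log2 fold change of 0.92 (SE 0.660, adjusted p = 0.4928, limma). For both ligands all 3 O3 mice were above all 4 FA mice, for Ccl7 by less than 0.01 at the closest pair.

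Ccr2 had the opposite sign. Its -ΔCt was -8.44, -9.22 and -8.22 in O3 mice and -6.80, -6.91, -6.97 and -6.68 in FA mice, so that it was the only named gene with every O3 mouse below every FA mouse. The log2 fold change was -1.79 (SE 0.599, 95% interval -3.01 to -0.56) and did not pass the test (adjusted p = 0.0688, limma). It passed with reference well H3 alone (-1.89, adjusted p = 0.0365, limma) and with the mean of the array wells as the reference (-2.07, adjusted p = 0.0179, limma). With reference well H1, H2 or H5 alone it was -2.06, -1.37 and -1.82 and did not pass (adjusted p = 0.118, 0.616 and 0.154, limma). Nor did it pass with wells H1 to H5 together (-1.73, adjusted p = 0.0978, limma). The position of Ccr2 on the array is one of the 3 placed less firmly.

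Ccr2, Cd14 and Ltb were the only markers of immune cells among the named wells. None of the 3 passed the test, and none was without a Ct in any mouse. The log2 of their summed level was between -3.69 and -3.27 in O3 mice and between -4.09 and -3.80 in FA mice. This sum runs over different primers, and the markers did not share a sign: Cd14 had a log2 fold change of 1.34, against -1.79 for Ccr2 and -0.50 for Ltb. The higher sum in O3 mice thus came from Cd14 and does not stand for the 3 markers together. The part of cell numbers in the other results was not tested.

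Among the remaining genes, Ccl19 and Ltb are expressed in lymphoid tissue, where Ccl19 guides T cells and dendritic cells and Ltb encodes lymphotoxin beta. Ccl19 was at -2.69, -2.58 and -4.16 in O3 mice and at -5.16, -4.42, -3.98 and -5.27 in FA mice, with O3 replicate 3 inside the FA range and a log2 fold change of 1.57 (SE 0.70, adjusted p = 0.183, limma). Ltb had a small negative log2 fold change of -0.50 (SE 0.487, adjusted p = 0.688, limma), or -0.33 without O3 replicate 3, with levels from -5.94 to -5.38 in O3 mice and from -5.51 to -4.65 in FA mice.

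Cxcl10, a chemokine induced by interferon that attracts T cells through CXCR3, was at -6.28, -6.75 and -7.67 in O3 mice and at -6.92, -8.78, -8.66 and -9.34 in FA mice. The overlap came from FA replicate 1 alone, the mouse recorded to 6 decimals. The log2 fold change was 1.53 (SE 0.677, adjusted p = 0.183, limma). Without FA replicate 1 it was 2.03 and did not pass (adjusted p = 0.0744, limma), and it passed in the mice recorded to 3 decimals (adjusted p = 0.00339, limma), a fit without 11 further mice of other stages.

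Fos encodes a subunit of the AP-1 transcription factor and is an immediate early gene. Its -ΔCt was -4.10, -4.27 and -4.49 in O3 mice and -5.57, -5.53, -5.48 and -6.59 in FA mice. The groups were about 1 unit apart at the closest mice. Fos did not pass the test (1.51, SE 0.530, adjusted p = 0.0857, limma), nor did it without FA replicate 1 (1.58, adjusted p = 0.103, limma) or any other single metestrus mouse. It passed in the mice recorded to 3 decimals (adjusted p = 0.0140, limma), a fit that also leaves out 11 mice of other stages.

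**Figure D3:**
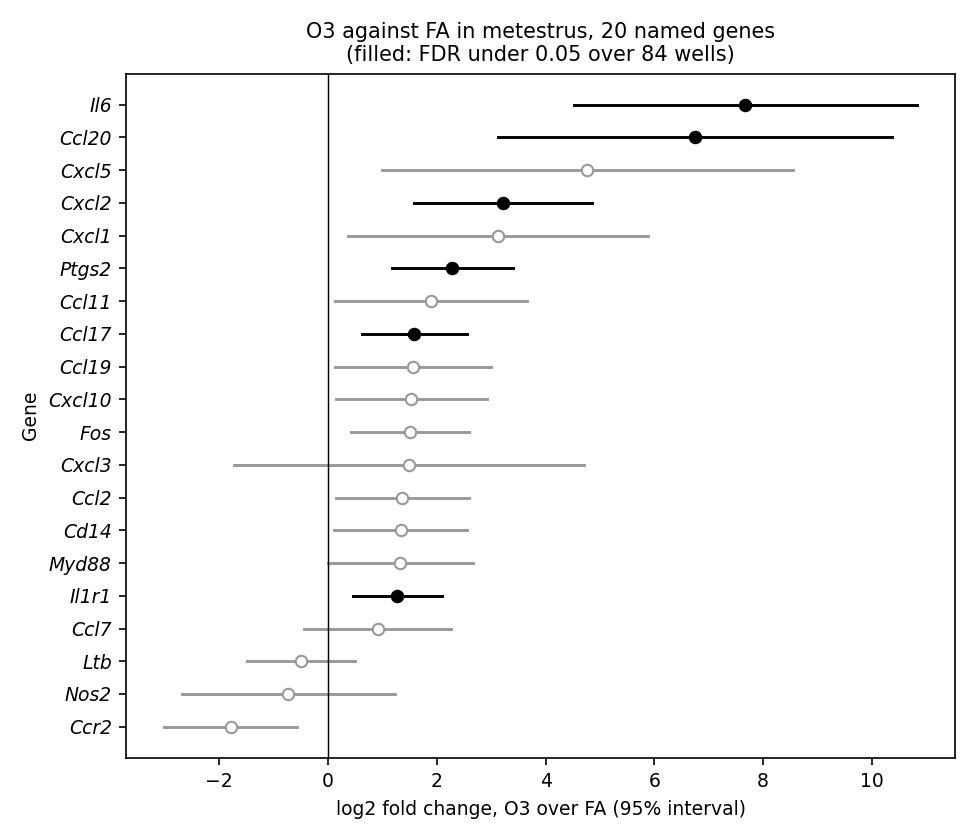
Log2 fold change of O3 over FA in metestrus with its 95% interval (horizontal axis) for the 20 named genes, from the limma fit over 34 mice; filled points have an FDR under 0.05 over 84 wells. Il6 at 7.67 and Ccl20 at 6.75 are the 2 largest, and Ccr2 at -1.79 is the lowest.

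Across the 20 genes, the spread between mice was larger in FA than in O3 for 15, with a median SD of 0.523 in FA (n = 4) and 0.411 in O3 (n = 3). The widest FA groups were those of Cxcl5 (SD 3.64), Cxcl1 (SD 2.47), Il6 (SD 2.10) and Ccl20 (SD 1.59). Every Ct seen for these genes in the FA mice was above 31. For Il6 only FA replicate 4 had a Ct (33.97). The FA spread of Il6, which is among the 15, thus rests on the value given to wells with no Ct. It is not a measured spread between mice.

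The same contrast was made in the other 3 stages, which share no mouse with metestrus: diestrus (3 O3, 4 FA), proestrus (5 O3, 6 FA) and estrus (3 O3, 6 FA). In these, 11.9%, 14.3% and 14.3% of the 84 wells passed the FDR. FA replicates 1 and 2 of diestrus were recorded to 7 decimals. FA replicate 1 of proestrus and O3 replicate 1 of estrus were recorded to 8. Without these mice, 9 wells passed in metestrus, Ccl11 and Ccr2 among them (limma). The median difference between metestrus and diestrus over the 84 wells was then 0.12, against 0.45 with all mice, and 0 wells passed in that test. What sets these mice apart was not tested. Of the 6 genes that rose in metestrus, 4 passed in diestrus, 4 in proestrus and 5 in estrus, and Il6, Ccl20 and Cxcl2 passed in each. The log2 fold changes of Il6 were 7.67 in metestrus, 5.96 in diestrus, 7.87 in proestrus and 6.76 in estrus. Those of Ccl20 were 6.75, 7.14, 6.99 and 8.49 in the same order. These sizes rest in part on the Ct of 40: Il6 had no Ct in 3, 2, 4 and 3 FA mice of the stages in that order, and Ccl20 in 2 FA mice of diestrus and 1 of estrus. With such wells left out, Il6 had 4.82, 3.68, 4.50 and 5.06 and Ccl20 had 6.75, 3.17, 6.99 and 7.13, all still past the FDR (limma). The difference of Ccl20 between metestrus and diestrus was -0.39 (95% interval -5.52 to 4.74) with a Ct of 40. With a Ct of 36 it was 1.61 (95% interval -1.63 to 4.84, unadjusted p = 0.319, limma), since Ccl20 then had 5.14 in diestrus. With these wells left out it was 3.58 (95% interval 0.84 to 6.32, unadjusted p = 0.0124, adjusted p = 0.331, limma). That fit drops the 2 FA mice of diestrus in which Ccl20 was not seen, so this difference rests on how they are treated.

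Ptgs2 had a log2 fold change of 2.29 in metestrus and 1.02 in diestrus, where it did not pass (adjusted p = 0.253, limma), and of 2.50 and 2.59 in proestrus and estrus. The difference between metestrus and diestrus was 1.27 (95% interval -0.32 to 2.85). Il1r1 passed in metestrus only, with 1.28 against 0.42, 0.80 and 1.01, but the difference itself did not pass: its metestrus effect minus that of diestrus was 0.86 (95% interval -0.29 to 2.01). Ccl17 had log2 fold changes of 1.58 in metestrus and 1.61 in diestrus, with a difference of -0.03 (95% interval -1.39 to 1.34).

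No well differed between stages at an FDR under 0.05 in the test of the difference itself (0% of 84 wells, limma), whether metestrus was set against diestrus or against the mean of the other 3 stages. At an unadjusted p under 0.05 there were 2 wells (2.38%) in the first test and 1 (1.19%) in the second, none of them a named gene. The smallest unadjusted p of a named gene was that of Nos2 in the first test, with a log2 fold change of -0.73 in metestrus and -3.50 in diestrus and a difference of 2.77 (95% interval -0.0009 to 5.53, unadjusted p = 0.0501, adjusted p = 0.951, limma). In diestrus, 1 of the 3 O3 mice had no Ct for Nos2. With that well left out the log2 fold change in diestrus was -1.13 (adjusted p = 0.189, limma) and the difference 0.40 (95% interval -1.10 to 1.90). With a Ct of 36 for that well they were -2.16 (adjusted p = 0.0141, limma) and 1.43 (95% interval -0.28 to 3.15). Ccr2 was lower by 1.79 in metestrus and by 2.82 in diestrus, with a difference of 1.03 (95% interval -0.71 to 2.76). The intervals are wide: for Il6 the difference between metestrus and diestrus was 1.72, with an interval from -2.75 to 6.18.

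**Figure D4:**
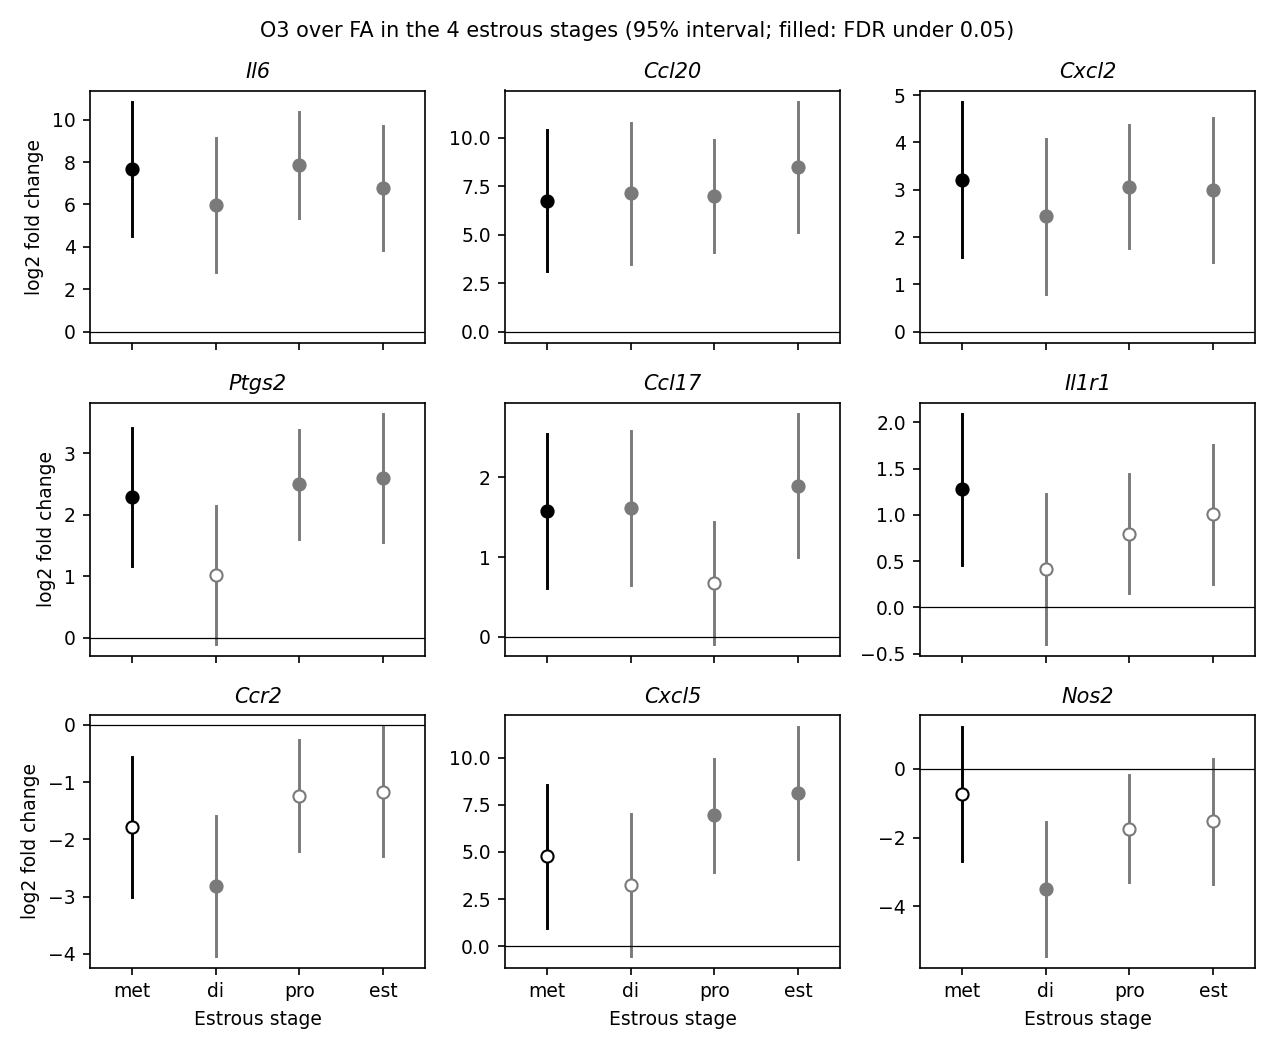
Log2 fold change of O3 over FA (vertical axis, own scale in each panel) in metestrus (met), diestrus (di), proestrus (pro) and estrus (est) for 9 genes, with 95% intervals; filled points have an FDR under 0.05. Il6, Ccl20 and Cxcl2 are filled in all 4 stages, Il1r1 in metestrus, and Ccr2 and Nos2 in diestrus.

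Several calls were lost when a single mouse was left out. Without O3 replicate 1, Il6 was the only gene past the FDR, and without O3 replicate 2 only Il6 and Ptgs2 were. Without FA replicate 4 there were 3, Cxcl2, Il6 and Ptgs2. Over the 7 fits that each left out 1 metestrus mouse, Il6 was called in 7, Ptgs2 in 6, Cxcl2 in 5, Ccl20 in 4, and Ccl17 and Il1r1 in 2 each. A lost call did not always go with a smaller difference. Ccl20 lost its call without O3 replicate 1, O3 replicate 2 or FA replicate 4. Its log2 fold change was then 6.89, 6.68 and 6.18 in that order, against 6.75 with all mice. Each of these fits also had fewer mice, and the part of this in the lost calls was not tested. In none of the 28 alternatives did any of the 20 genes change sign. Several of these could not change it, since they leave the log2 fold change as it was. The fit on the 7 metestrus mice and the exact permutation test are among them.

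**Figure D5:**
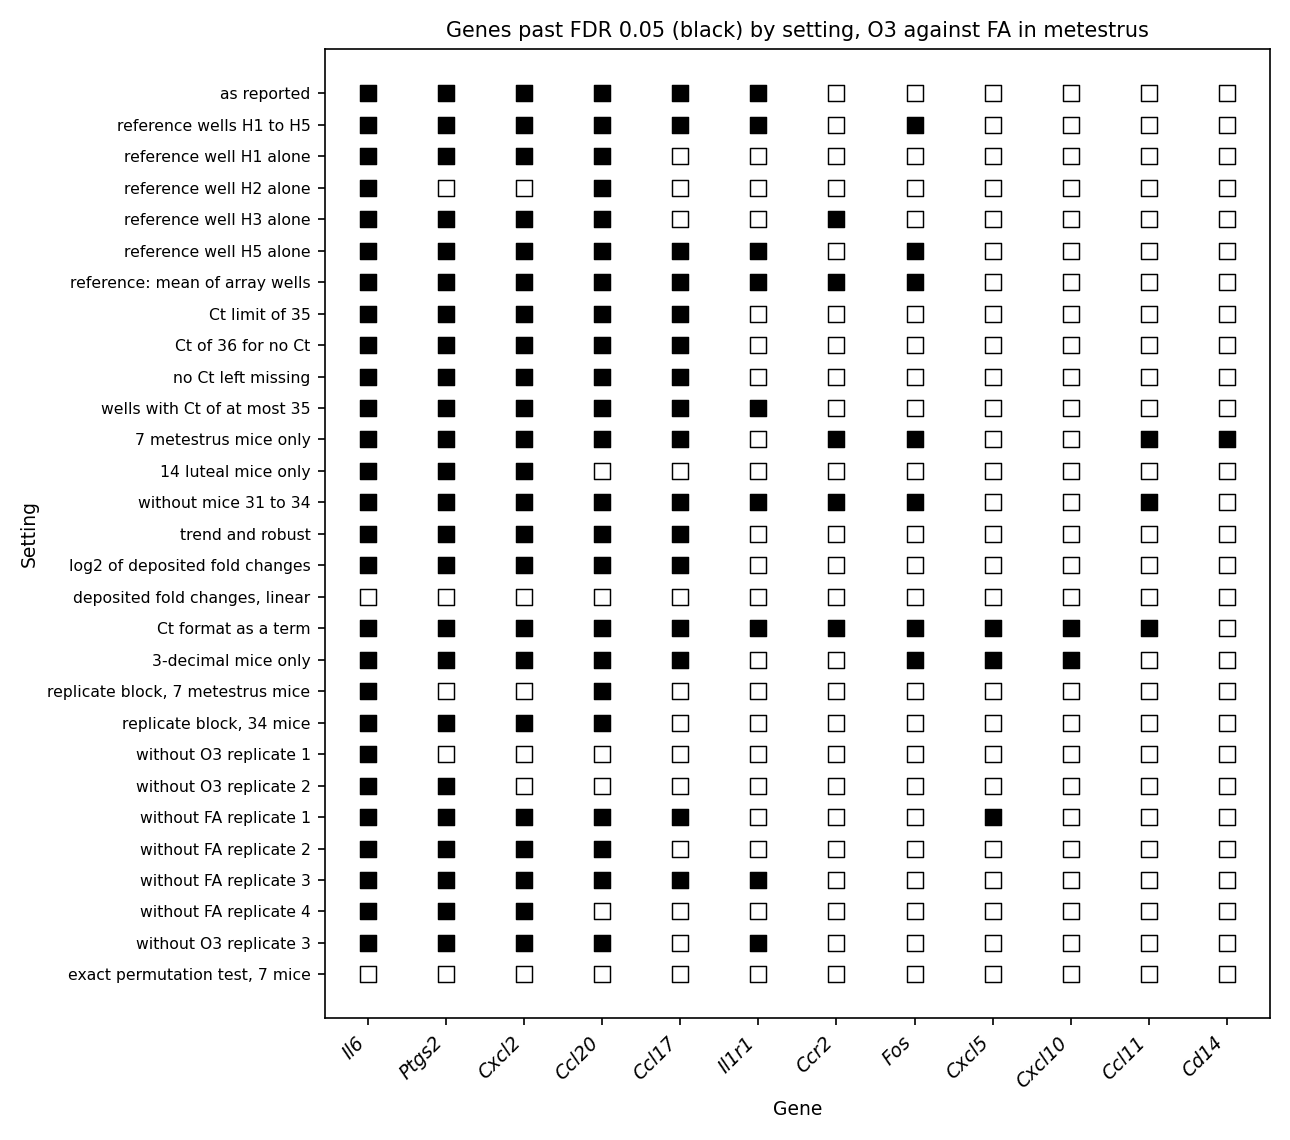
Calls at an FDR under 0.05 (black squares) for 12 named genes (horizontal axis) under the reported setting and 28 alternatives (vertical axis); an open square is a gene that did not pass. Il6 is black in 26 of the 28 alternatives and Il1r1 in 8.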

How the data were processed

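RNA of 34 lungs (400 ng per mouse) was converted to cDNA (RT2 First Strand kit) and run on a SYBR Green PCR array. The authors deposited raw threshold cycles (Ct, cycles), 1 column per mouse, without normalization, and linear fold changes (a ratio), which the authors derived from ΔCt against 4 reference wells and a calibrator mouse, with missing Ct values set to 36. The latter served only as an alternative. Software settings behind the Ct values are not given in the sources used here.

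-ΔCt was computed from wells H1, H2, H3 and H5, with a Ct of 40 for no Ct (48 of 588 metestrus values; 13 further values were above 35). limma 3.58.1 in R 4.3.3 was fitted to 8 groups and 34 mice, with Benjamini-Hochberg adjustment over 84 wells (FDR under 0.05); single values were tested by exact permutation. No counting interval can be given for a Ct, and the number of mice limits the precision. Scripts were tested on simulated data.

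The genes named are all wells that could be given a gene: 17 whose group differences of the deposited fold changes equal those in the study's lists, and 3 from its heat map; unnamed wells were to be named only past the FDR, and none was. Replicate numbers were not taken as pairs. The members and lists were chosen with earlier results of these data known. Alternatives covered the reference wells, wells with no Ct, filters, the mice fitted, the number format of the Ct values, a replicate block and leaving out each mouse.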

Additional observations from a re-analysis of the deposited data

Results flagged for a closer look

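Fos in FA replicate 4 had a -ΔCt of -6.59, against -5.57 to -5.48 in the other 3 FA mice of metestrus, a gap of 0.917 of the group's range (Dixon's test for 4 values, past the 95% limit). It was the only one of 22 items tested, and chance gives about 1 in 20. Without this mouse the log2 fold change of Fos was 1.24 (adjusted p = 0.291, limma), against 1.51 with it.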

How the results depend on the processing

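The count of 6 genes past the FDR was 2 with reference well H2 alone, 3 with the 14 luteal mice only, 11 (10 higher, 1 lower) with the number format of the Ct values as a term, and 0 with the deposited linear fold changes (limma, 6 at an unadjusted p under 0.05). The exact permutation test gave 0 (0 at an unadjusted p under 0.05), since 3 against 4 mice cannot go below 0.0571. Leaving out 1 metestrus mouse gave 1 to 6. In the other alternatives without a block the count lay between 4 and 9. The causes were not tested. Fits with fewer mice gave both more and fewer calls than 6, with 9 on the 7 metestrus mice and 3 on the 14 luteal mice. The 2 tests of a difference between stages gave 0 wells under every alternative run. The differences in reference Ct and in wells with no Ct could not pass under any alternative, so these alternatives decide nothing. With 3 against 4 mice or fewer the exact permutation test cannot go below 0.0571.

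Replicate numbers are shared between the groups. The deviations of same-numbered mice correlated at -0.15, 0.21 and -0.52 over the 84 wells, and the numbers were not taken as pairs. So few correlations cannot exclude a pairing. With a replicate block the count was 2 on the 7 metestrus mice and 4 on the 34 mice. High Ct values limit Il6 and Cxcl5 in FA mice, and Cxcl1 in FA replicate 3.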
